A study of Mus musculus with 95 samples.

Results

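The mitochondrial genome of the mouse carries 37 genes, and all of them are rows of the deposited count table, which holds 54532 genes. They were chosen as every row placed on chromosome MT, without use of any measured value, and comprise 13 mRNA genes, 2 rRNA genes and 22 tRNA genes. They were followed in 95 bulk RNA-seq libraries of mouse brain, in 16 groups that hold 6 libraries each, with 5 for Nex hippocampus knockout males as the exception. The study compared 2 C57BL/6 mouse lines in which Fkbp5, the gene of the stress-related co-chaperone FKBP51, was deleted by Cre: FKBP51-Nex-Cre, here the Nex line, and FKBP51-Dlx-Cre, here the Dlx line. The Nex driver is known to act in forebrain glutamatergic neurons and the Dlx driver in forebrain GABAergic neurons, whereas each library holds RNA of all cells of the sampled tissue. Both dorsal hippocampus and bed nucleus (of the stria terminalis) were sampled at baseline, without treatment, in wild-type and knockout animals of either sex. Libraries are named by their titles, in which N or Dl stands for the line, D or B for the region, M or F for the sex and W or K for the genotype. The ages of the animals, and whether wild types carried a Cre or floxed allele, are not given in the sources used here. The series title asks about effects of FKBP51 that depend on sex and oppose each other in the 2 neuron classes, and for the mitochondrial transcripts the design gives 4 questions: genotype, sex, line and region.

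Mitochondrial DNA is transcribed from both strands into long RNAs that span many genes, and the tRNAs, which lie between most of the mRNAs and rRNAs, mark the places where these RNAs are cut. The mRNAs encode subunits of respiratory complex I (the Nd genes), complex III (mt-Cytb), complex IV (the Co genes) and ATP synthase (mt-Atp6 and mt-Atp8). The 2 rRNAs and 22 tRNAs serve only the ribosomes inside the organelle, while most respiratory chain subunits, all mitochondrial ribosomal proteins and the transcription machinery come from nuclear genes. Neurons depend on this system to fuel ion pumping and synaptic transmission. In the annotation 12 mRNA genes, both rRNA genes and 14 tRNA genes lie on the plus strand, and mt-Nd6 and 8 tRNA genes lie on the minus strand.

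Library totals were 19.6 to 31.2 (median 22.4) in units of 1e6 counts. Summed CPM (counts scaled to a library total of 1e6) of the 10 dorsal hippocampus markers were 941 to 1948 in hippocampal libraries and 318 to 875 in bed nucleus libraries, without overlap. Those of the 11 bed nucleus and ventral forebrain markers were 485 to 897 and 1647 to 3059. Fkbp5 itself fell in knockouts of the Nex hippocampus (log2 difference -0.99 in males, edgeR adjusted p = 0.00211, and -1.07 in females, 0.000189). It fell in those of the Dlx bed nucleus as well (-2.41 in males, edgeR adjusted p = 5.07e-09, and -1.66 in females, 6.62e-06), and was not called in the other 4 genotype comparisons (log2 -0.09 to 0.17). Dl_D_F_K_8, a knockout female of the Dlx hippocampus, had counts at 17863 genes, the lowest number of all libraries.

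Part of the mitochondrial genome also exists in the nuclear genome, and this bears on how its reads could be counted. On chromosome 1, 7 neighbouring pseudogenes copy genes of the stretch from the end of mt-Co1 to the first 876 bases of mt-Nd4. Gm28661 was identical to mt-Co2 over 681 bases, Gm10925 to mt-Atp6 over 678 bases and Gm28437 to mt-Co3 over 783 bases. Gm10222 was identical to mt-Nd4l over 294 of its 297 bases, which are shown here as an example of a mitochondrial sequence that cannot be told from its nuclear copy. All sequences are from GENCODE M21 transcripts on GRCm38, 5′ to 3′ on the gene's own strand.

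mt-Nd4l (chrM:9877-10170, plus strand; Gm10222, chr1:24612407-24612700, minus strand, has the same letters): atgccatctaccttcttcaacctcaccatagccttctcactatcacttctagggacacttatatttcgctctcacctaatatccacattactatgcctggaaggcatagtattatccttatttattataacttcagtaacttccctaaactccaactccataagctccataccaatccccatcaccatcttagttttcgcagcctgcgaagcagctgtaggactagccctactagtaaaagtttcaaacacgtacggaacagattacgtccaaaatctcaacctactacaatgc

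Between mt-Nd3 and its copy Gm28438 1 of 345 bases differed, T3C, counted from the first base of mt-Nd3. Their first 60 bases show how little there is to separate them, with the differing base in capitals.
mt-Nd3 (chrM:9459-9518, plus strand): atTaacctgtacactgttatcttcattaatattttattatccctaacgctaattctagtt
Gm28438 (chr1:24613060-24613119, minus strand): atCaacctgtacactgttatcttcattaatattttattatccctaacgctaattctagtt

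The copy of the most abundant transcript, mt-Co1, begins inside the gene. Gm29216 matched bases 1054 to 1545 of mt-Co1 with 6 differences, all within the first 13 bases of the copy: T1056A, C1057T, A1059G, A1060G, C1062A and A1066T, counted from the first base of mt-Co1. The last 479 bases, 31% of the gene, were identical. The edge of the copied stretch is shown with the differing bases in capitals.
mt-Co1 (chrM:6381-6440, plus strand): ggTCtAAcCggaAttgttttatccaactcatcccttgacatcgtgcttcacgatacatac
Gm29216 (chr1:24616138-24616197, minus strand): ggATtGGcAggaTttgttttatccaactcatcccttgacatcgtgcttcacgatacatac

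Of all 100-base words in each mRNA, the share also found in a nuclear transcript of the annotation was 97.6% for mt-Nd3, 98.5% for mt-Nd4l, 99.5% for mt-Co2 and mt-Atp6 and 99.9% for mt-Co3. It was 60.8% for mt-Nd4, 30.8% for mt-Co1 and 3.20% for mt-Nd2. For the other 5 mRNAs and both rRNAs it was 0. Only annotated transcripts were searched, so nuclear sequence outside them was not covered. Whether reads that fit several places were counted, how long the reads were and whether counting used strand are not given in the sources used here.

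The counts were spread very unevenly over the genes of this single molecule. By mean CPM over the 95 libraries, 6 of the 37 genes were among the 10 highest of all 54532 genes: mt-Co1 ranked 1, mt-Cytb 2, mt-Nd1 4, mt-Nd5 5, mt-Rnr2 8 and mt-Nd4 9. The level of mt-Co1, a core subunit of complex IV, was 13449 CPM in the median library (1042, in Dl_D_F_K_8, to 23792), and that of mt-Cytb, the complex III subunit, was 6199 CPM. Per kilobase of gene, the median level was 8705 CPM for mt-Co1, 5419 for mt-Cytb and 4145 for mt-Nd1. It was 2689 for mt-Nd2, 2274 for mt-Nd4, 2152 for mt-Nd5 and 1967 for mt-Nd6, all subunits of complex I. The 12S rRNA mt-Rnr1 had 2264 CPM per kilobase and the 16S rRNA mt-Rnr2 had 1956, close to these mRNAs.

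The remaining 6 mRNAs lay far below. Median levels per kilobase were 234 CPM for mt-Co2, 198 for mt-Atp6, 128 for mt-Co3 and 107 for mt-Nd4l. They were 13.4 for mt-Nd3 and 7.37 for mt-Atp8, the small ATP synthase subunit, which had a count of 0 in 1 library. Together the 7 mRNAs of highest median held 98.7% of mitochondrial mRNA counts in the median library (93.2 to 99.5%), and mt-Co1 alone held 38.9% (14.95 to 45.3%). Of the 6 low mRNAs, 5 have an annotated copy on chromosome 1 that matches over nearly their whole length. The sixth, mt-Atp8, has no annotated copy, lies between mt-Co2 and mt-Atp6 and overlaps the start of mt-Atp6. The copies Gm10925 and Gm28661 of these neighbours flank chromosome 1 bases 24614651 to 24614885, which were not compared with mt-Atp8.

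The pseudogenes themselves held counts in every library. Their summed level was 219 to 1148 CPM (median 382 in the hippocampus and 513 in the bed nucleus), and in 42 of 95 libraries it exceeded that of the 6 low mRNAs. Gm28661 had a median of 142 CPM beside 160 for mt-Co2, and Gm10925 had 95.7 beside 135 for mt-Atp6. For mt-Nd3 the order was the other way, with 4.65 CPM at the gene and 38.6 at its 1-base-different copy Gm28438. Levels of mt-Co2, mt-Atp6, mt-Co3, mt-Nd3 and mt-Nd4l, in part those of mt-Nd4 and mt-Co1, and their differences between groups are uncertain, since counts cannot be assigned to the gene or to its copy. Levels of mt-Atp8 may carry the same limit, since the sequence between the copies of its neighbours was not compared with it. The part of the copies in these low levels was not tested.

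**Figure D1:**
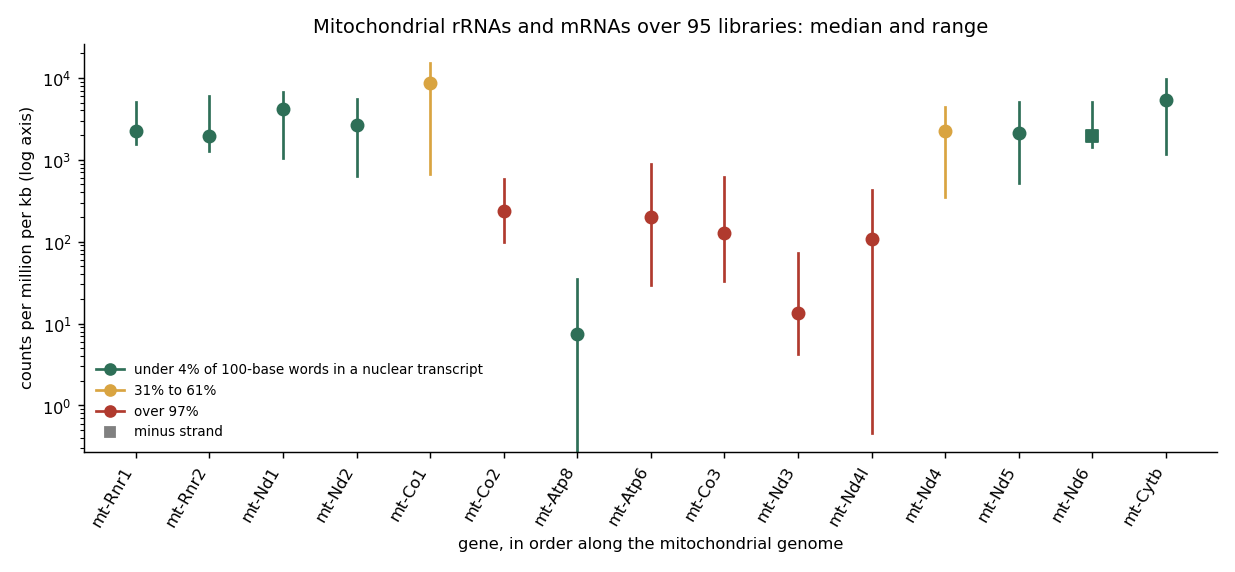
Level of the 13 mitochondrial mRNAs and 2 rRNAs in counts per gene length and library total (CPM per kb, log axis), in order along the genome; points are medians over 95 libraries, lines run from the lowest to the highest library, and colour gives the share of 100-base words also found in a nuclear transcript. Of these genes 9 lie at or above 1956 CPM per kb and 6 mRNAs lie at 234 or below, 5 of them with an almost whole annotated nuclear copy. The line of mt-Atp8 is cut at the axis because 1 library is at 0.

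The tRNA genes span 1501 bases in all and gave a median of 0.314% of mitochondrial counts. Of the 22, 14 had a median count over 10, 5 had a median of 0, among them mt-Tf, the phenylalanine tRNA, which was at 0 in all 95 libraries. The others with a median of 0, mt-Ts1, mt-Td, mt-Tk and mt-Tg, lie between genes that are copied on chromosome 1. Whether nuclear sequence took reads of these tRNAs was not tested. The tRNA genes on the minus strand held 84.7% of tRNA counts in the median library (70.2 to 90.3%). The 3 of highest level are all on that strand, and their sequences are given because comparisons below turn on them.
mt-Tp, proline tRNA (chrM:15356-15422, minus strand): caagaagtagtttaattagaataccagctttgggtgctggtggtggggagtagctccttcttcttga
mt-Tc, cysteine tRNA (chrM:5192-5257, minus strand): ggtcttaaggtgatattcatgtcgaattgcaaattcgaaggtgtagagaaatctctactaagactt
mt-Te, glutamate tRNA (chrM:14071-14139, minus strand): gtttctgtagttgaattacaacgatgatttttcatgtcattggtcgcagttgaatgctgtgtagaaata

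Median levels per kilobase were 727 CPM for mt-Tp, 345 for mt-Tc and 207 for mt-Te, followed by 175 for the asparagine tRNA mt-Tn and 98.8 for the tyrosine tRNA mt-Ty. The first plus-strand tRNA in this order was the leucine tRNA mt-Tl1 with 86.5. Since the strand setting of the counting is not given, reads of a tRNA and of RNA from the opposite strand at the same place cannot be told apart. The same holds for mt-Nd6, the mRNA on the minus strand.

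Mitochondrial genes together took 2.14 to 7.38% of all counts (median 3.999), or 2.84 to 7.38% without Dl_D_F_K_8. In the median library mRNAs made up 86.9% and rRNAs 12.7% of the mitochondrial counts, and mt-Nd6, the only minus-strand mRNA, made up 2.88% of the mRNA counts. The ratio of mt-Rnr2 to mt-Rnr1 counts was 1.33 to 1.94, or 1.33 to 1.73 without Dl_D_F_K_8. The sources used here do not give how much rRNA the library preparation removed or enriched, so the rRNA share is compared between groups only.

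Across libraries the high mRNAs moved together. After centring log2 CPM on each group, the pairwise correlations of mt-Nd1, mt-Nd2, mt-Co1, mt-Nd4, mt-Nd5 and mt-Cytb over 94 libraries (all but Dl_D_F_K_8) ran from 0.81 for mt-Nd1 with mt-Nd5 to 0.95 for mt-Nd4 with mt-Cytb. The correlations of mt-Nd6, annotated on the other strand, with these 6 were 0.615 to 0.816, with the strand limit given above. The rRNAs followed each other (r = 0.931) more closely than they followed these mRNAs (0.0814 to 0.329). For the low mRNAs mt-Co2 and mt-Atp6, correlations with a nuclear copy were 0.735 (mt-Co2 with Gm28661) and 0.667 (mt-Atp6 with Gm10925), against -0.0218 for mt-Co2 with mt-Co1. That of mt-Co3 with its copy Gm28437 was 0.453, close to its 0.459 with Gm28661, the copy of mt-Co2. These are descriptions over libraries that share their depth and scaling, and no test was made.

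The clearest difference between groups lay between the brain regions. In all 8 comparisons of a line, sex and genotype the mean mitochondrial share was lower in the dorsal hippocampus than in the bed nucleus. Over all libraries it averaged 3.74% in the hippocampus (n = 47) and 4.44% in the bed nucleus (n = 48). In Dlx wild-type females the share was 3.49, 3.67 and 3.87% (lowest, median and highest of 6) in the hippocampus and 4.06, 4.29 and 4.78% in the bed nucleus. The groups did not overlap, with means of 3.67 ± 0.130 and 4.396 ± 0.288% (SD, n = 6 each; exact two-sided permutation p = 0.00216, the smallest this test can give, adjusted p = 0.0462 over 64 comparisons of shares).

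None of the other 7 region comparisons of the share passed the adjustment, and 4 of them had an exact permutation p under 0.05 unadjusted. In Nex wild-type females the means were 3.64 ± 0.214 and 4.21 ± 0.297% (SD, n = 6 each, exact permutation p = 0.00649, adjusted 0.0831). In Nex knockout females they were 3.84 ± 0.381 and 4.56 ± 0.233% (exact permutation p = 0.0108, adjusted 0.0989). In Nex wild-type males they were 3.53 ± 0.365 and 4.65 ± 1.41% (exact permutation p = 0.0238, adjusted 0.139), where the bed nucleus library N_B_M_W_573 at 7.38% lay above all other libraries of the series. The difference in Dlx wild-type males was 3.58 ± 0.183 against 4.30 ± 0.533% (exact permutation p = 0.0173, adjusted 0.139).

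The other 3 comparisons were all of knockouts. The shares were 4.17 ± 0.890 (n = 5) against 5.11 ± 0.813% in Nex knockout males. In Dlx knockout males they were 3.80 ± 0.275 against 3.96 ± 0.564%. There the bed nucleus library Dl_B_M_K_639 had 2.84%, and the others of its group had 3.99 to 4.29%. In Dlx knockout females they were 3.75 ± 0.890 against 4.38 ± 0.283%, where Dl_D_F_K_8 had 2.14%. The exact permutation p of these 3 comparisons were 0.104, 0.548 and 0.121. Fewer cells rich in mitochondria and less mitochondrial RNA per cell cannot be told apart in bulk tissue.

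**Figure D2:**
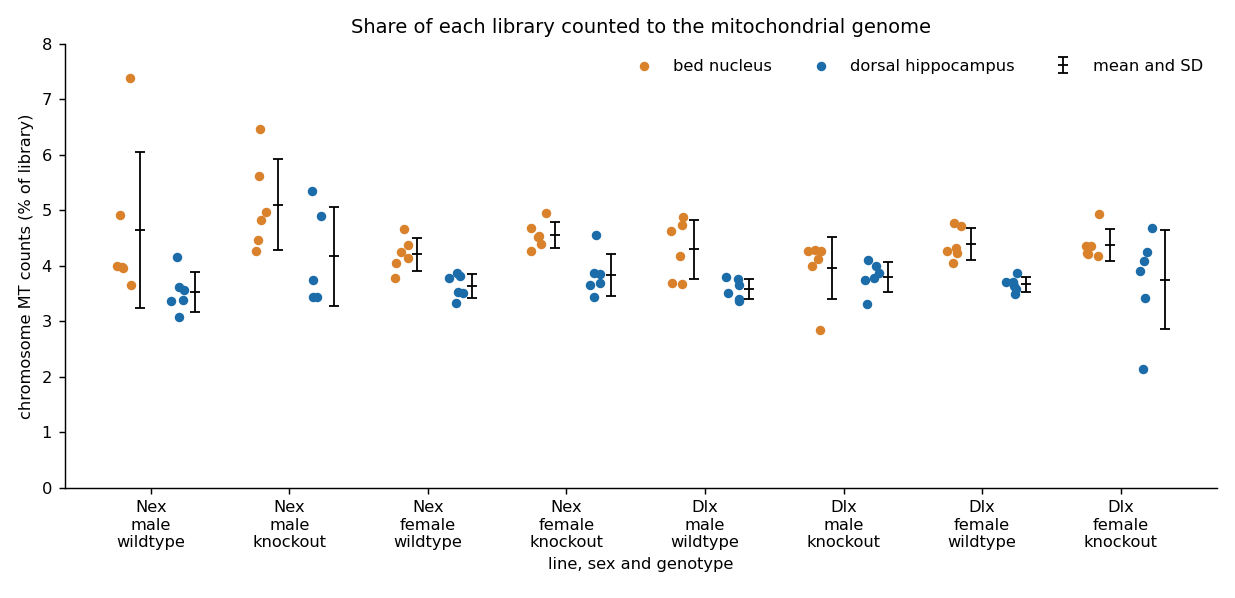
Share of all counts at the 37 mitochondrial genes (percent) in each of the 95 libraries, by group; points are libraries and the bars give the mean and SD. Hippocampal means run from 3.53 to 4.17% and bed nucleus means from 3.96 to 5.11%, with single libraries at 7.38 and 2.14%.

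The makeup of the mitochondrial counts also differed between regions in places. The tRNA share was higher in the hippocampus in 8 of 8 comparisons, of which 5 had an exact permutation p under 0.05 unadjusted and 1 passed the adjustment. That was Dlx wild-type males with 0.371 ± 0.0330 against 0.287 ± 0.0153% of mitochondrial counts (SD, n = 6 each, exact permutation p = 0.00216, adjusted p = 0.0462), and these groups did not overlap. The mt-Nd6 share of mRNA counts was higher in the hippocampus in 4 comparisons and lower in 4. It was called in 1, Dlx wild-type females, with 2.68 ± 0.0712 against 2.91 ± 0.0876% (exact permutation p = 0.00216, adjusted 0.0462). The 3 calls among the shares (mitochondrial, tRNA and mt-Nd6) were lost in 5, 6 and 6 of the 12 cases in which 1 library was left out, each a library of the group with the lower mean, with exact permutation p adjusted to 0.0693 or 0.0831. In these cases the 2 groups still did not overlap. The rRNA share passed in none of the region comparisons. Its lowest exact permutation p was 0.00433 (adjusted 0.0693) in Dlx wild-type males, with 16.9 ± 3.01 against 12.97 ± 1.12% of mitochondrial counts.

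Gene by gene, the regions were compared within each line and genotype with edgeR's quasi-likelihood test, averaged over sexes and adjusted over all genes by Benjamini-Hochberg. Differences are hippocampus minus bed nucleus on the log2 scale, and called means an adjusted p under 0.05. Of the 37 members, 29 passed the filter on low counts: all mRNAs and rRNAs and 14 tRNAs. In Nex wild types 11 of these 29 were called, all lower in the hippocampus. In the same comparison 55.6% of all genes tested were called, 26.9% higher and 28.7% lower, and against that background the count of 11 is no result about the members. All 15 mRNAs and rRNAs had differences below 0, from -1.14 to -0.14. The median over the 29 was -0.33, against -0.02 over all genes tested.

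Complex III and complex I transcripts were among those called in Nex wild types. The level of mt-Cytb was 4381, 5210 and 6241 CPM (lowest, median and highest of 12) in the hippocampus and 5373, 6584 and 11000 in the bed nucleus, ranges that overlap in part. It fell by 0.31 (SE 0.0877, edgeR adjusted p = 0.00275). The level of mt-Nd5, a proton-pumping subunit of complex I, was 2705, 3447 and 4007 CPM in the hippocampus and 3650, 4272 and 9126 in the bed nucleus. It fell by 0.38 (SE 0.117, edgeR adjusted p = 0.00485), and its upper hippocampal libraries reach into the bed nucleus range. mt-Nd1 fell by 0.21 (edgeR adjusted p = 0.0276), mt-Nd4 by 0.27 (0.0227) and mt-Nd3 by 0.67 (0.0260). All 3 of these calls were lost without N_B_M_W_573, and that of mt-Nd1 with limma as well. The differences of mt-Nd2 (-0.16), mt-Nd4l (-0.60) and mt-Nd6 (-0.21) were not called.

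Of complex IV, mt-Co1 differed by -0.21 and was not called (edgeR adjusted p = 0.0612), with 10847, 11883 and 14876 CPM in the hippocampus against 12399, 13477 and 23792. The level of mt-Co2 was 67.4, 105 and 169 CPM in the hippocampus and 103, 183 and 283 in the bed nucleus. It fell by 0.73 (SE 0.196, edgeR adjusted p = 0.00153), again with overlapping ranges. mt-Co3 fell by 1.14 (SE 0.322, edgeR adjusted p = 0.00237). Of ATP synthase, mt-Atp6 fell by 0.86 (SE 0.258, edgeR adjusted p = 0.00423) and mt-Atp8 by 0.92 (0.0122). All but mt-Atp8 of these low mRNAs have an annotated nuclear copy, and all 7 copies were called lower in the hippocampus too, with a median of -0.64. Among the RNAs of translation, mt-Rnr1 fell by 0.20 (edgeR adjusted p = 0.0324) and mt-Tl1 by 0.37 (0.0409), while mt-Rnr2 differed by -0.14 without a call. Without N_B_M_W_573, 7 members were called.

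In Nex knockouts, which are other animals, 6 of 29 members were called, all lower in the hippocampus, beside 54.7% of all genes (27.4% higher and 27.3% lower). They were mt-Atp8 (-0.96, edgeR adjusted p = 0.0123), mt-Co2 (-0.62, 0.00782), mt-Cytb (-0.27, 0.00973), mt-Nd3 (-0.63, 0.0397), mt-Nd5 (-0.28, 0.0439) and the histidine tRNA mt-Th (-0.46, 0.0158). The first 5 were also called in Nex wild types, which is 83.3% of the knockout list and 45.5% of the wild-type list. In Nex wild types 55.6% of all genes were called, and the overlap over all genes was not computed. Both lists come from 1 fit of the 8 Nex groups with a shared spread per gene, so they are not independent. All 15 mRNAs and rRNAs again had differences below 0, from -0.96 to -0.02, and the median over the 29 was -0.25. Leaving out 1 library raised the count to 12 (without N_D_M_K_543 or N_D_M_K_571) or 10 (without N_B_M_K_575), and lowered it to 4 (without N_D_M_K_575, N_D_M_K_583, N_D_F_K_496, N_D_F_K_498 or N_B_F_K_476). The call of mt-Nd5 was lost without any 1 of 11 libraries and that of mt-Nd3 without any 1 of 8. Limma called 13 members, beside 11268 of 19904 genes.

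In Dlx wild types 3 members fell and 1 rose of 29, beside 49.1% of all genes (25.5% lower and 23.6% higher). The level of mt-Nd6 was 756, 852 and 926 CPM in the hippocampus and 905, 1061 and 1233 in the bed nucleus, ranges that overlap between 905 and 926. It fell by 0.27 (SE 0.0656, edgeR adjusted p = 0.000568). The glutamate tRNA mt-Te, which lies next to mt-Nd6 on the same strand, fell by 0.93 (0.00177) and mt-Ty fell by 0.48 (0.0234). The proline tRNA mt-Tp stood at 50.8, 58.96 and 84.8 CPM in the hippocampus and 35.7, 42.1 and 57.8 in the bed nucleus. It rose by 0.58 (SE 0.108, edgeR adjusted p = 1.34e-05). Of the 15 mRNAs and rRNAs 14 had differences below 0, and without Dl_D_M_W_627 the count of called members was 8. Limma called 11 members, beside 12762 of 19512 genes. The edgeR fit took its spread from all groups of the Dlx line, Dl_D_F_K_8 included. Removal of that library was not examined for this comparison, and its part in the number of calls was not tested.

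In Dlx knockouts 2 members were called, both higher in the hippocampus, beside 52.3% of all genes (26.1% higher). mt-Tp was at 18.5, 51.8 and 65.9 CPM in the hippocampus and 30.2, 41.3 and 49.6 in the bed nucleus, and rose by 0.38 (SE 0.108, edgeR adjusted p = 0.00295). It was the 1 member called in both genotypes of the Dlx line, and in the Nex line its differences of 0.17 in wild types and 0.24 in knockouts were not called. mt-Rnr2 rose by 0.34 (SE 0.137, edgeR adjusted p = 0.0352), a call that rests on Dl_D_F_K_8, the library that stands apart, without which the difference was 0.08. It was also lost without any 1 of 4 other libraries: Dl_D_M_K_583, Dl_D_M_K_639, Dl_B_M_K_631 or Dl_B_F_K_19. Of the 15 mRNAs and rRNAs 8 had differences below 0. Whether the region difference itself differs between lines or genotypes was not tested.

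**Figure D3:**
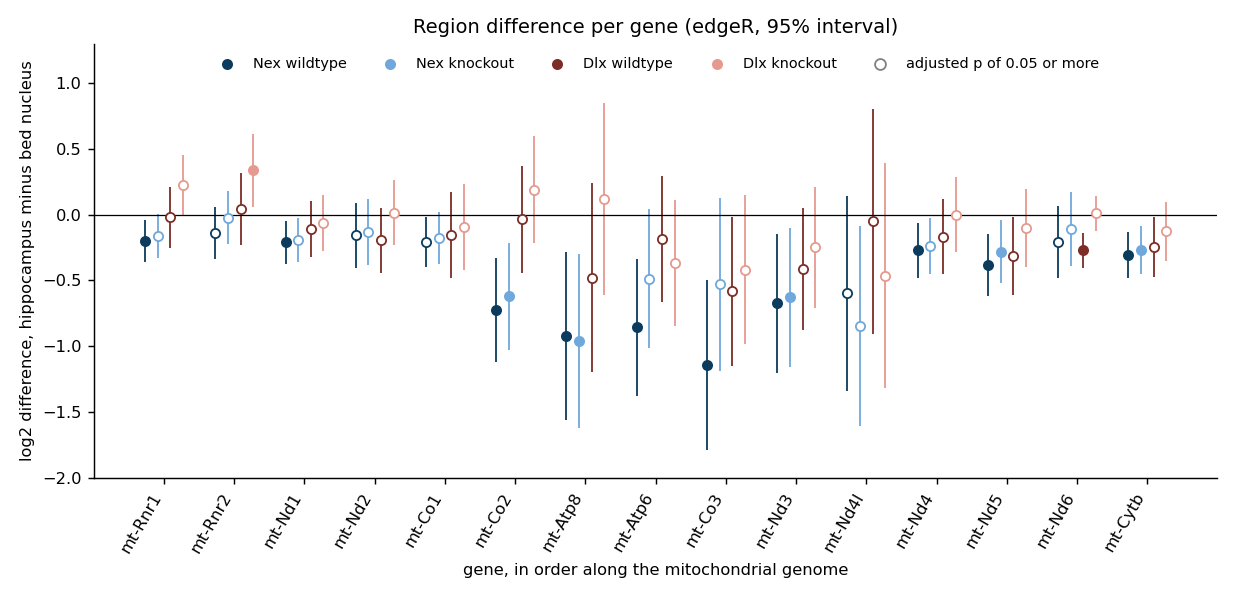
Log2 difference of the mitochondrial mRNAs and rRNAs, hippocampus minus bed nucleus, by line and genotype (edgeR); points are estimates, lines are 95% intervals, and open points did not pass an adjusted p under 0.05. In the Nex line all 15 genes lie below 0 in both genotypes, and the 1 filled point above 0 is mt-Rnr2 in Dlx knockouts.

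Cell-type markers moved with the region, and their part in the mitochondrial differences was not tested. In the 4 comparisons 23.6 to 27.4% of all genes were called higher in the hippocampus and 25.5 to 28.7% lower. Of 8 oligodendrocyte markers, 8 were lower in the hippocampus in each of the 4 comparisons (medians -1.31 to -1.56), with summed levels of 2218 to 7986 CPM there and 8389 to 18808 in the bed nucleus. Microglial markers were lower in 8, 8, 7 and 4 of 8 in Nex wild types, Nex knockouts, Dlx wild types and Dlx knockouts (294 to 798 against 404 to 760 CPM). The highest sum, 798 CPM, was that of Dl_D_F_K_8, a Dlx knockout. The part of that library in the marker counts was not tested. Endothelial markers were lower in 5 or 6 of 7 (148 to 367 against 199 to 344 CPM). Glutamatergic neuron markers were higher in 6 or 7 of 7 (2329 to 7836 against 598 to 1411 CPM), and GABAergic markers were lower in 6 of 7 (297 to 910 against 1730 to 3148 CPM). Astrocyte markers went both ways, with 2 or 3 of 8 in each direction (3434 to 5251 against 3420 to 4450 CPM). Choroid plexus markers were called higher for 1 to 5 of the 7 or 8 tested and ranged widely (9.45 to 1169 against 11.97 to 591 CPM). Of 7 thalamus markers 2, 5, 1 and 0 were higher and 0, 0, 0 and 2 lower, and none of 5 erythrocyte markers was called.

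Genotype was compared in each line, region and sex. None of the 29 members was called in any of the 8 comparisons by edgeR's test, beside 0.0106% of all genes for Nex hippocampus males and for females, 0.00539% for Dlx bed nucleus males and for females, and 0% in the other 4. At an unadjusted p under 0.05 the members numbered 12 in Nex hippocampus males, 7 in Dlx hippocampus females, 5 in Dlx bed nucleus females, 0 in Dlx bed nucleus males and 2 in each of the other 4. The shares of all genes at that p were 9.93, 10.6, 5.66 and 4.34% in these 4 comparisons and 1.39 to 3.20% in the other 4. DESeq2 and limma likewise called none.

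In Nex hippocampus males, where Fkbp5 was lower in knockouts, 26 of 29 members had differences above 0, as did all 15 mRNAs and rRNAs (0.06 to 1.29), with a median of 0.36 against 0.01 over all genes. The level of mt-Nd6 was 746, 1006, 1269, 1277 and 1743 CPM in the 5 knockouts and 733, 812 and 1060 (lowest, median and highest of 6) in wild types, so that 3 of 5 knockouts lay above every wild type. The difference was 0.56 (SE 0.167, edgeR adjusted p = 0.334). mt-Co3 stood at 37.9, 100.2, 126, 183 and 203 CPM in knockouts and 39.8, 55.5 and 63.7 in wild types, a difference of 1.29 (SE 0.399, edgeR adjusted p = 0.334). Of these knockouts 4 were above all wild types and 1 was below them.

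The high mRNAs stood apart in 2 of the 5 knockout libraries. mt-Co1 was at 18221 CPM in N_D_M_K_543 and 17070 in N_D_M_K_571, but at 11668, 11734 and 11763 in the other 3 knockouts, within the wild-type range of 11336 to 14876. mt-Cytb followed the same order, with 7306 and 6941 CPM in these 2 libraries and 4924 to 5476 in the others, beside 4381 to 6241 in wild types. Their mitochondrial shares were 5.35 and 4.90%, against 3.43 to 3.74% in the other knockouts. With N_D_M_K_583 left out, mt-Nd6 passed the threshold, the 1 member to do so in any genotype comparison with a library left out.

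In knockout females of the Dlx hippocampus, Dl_D_F_K_8 set the spread. Its mt-Co1 level was 1042 CPM, against 11318 to 16508 in the other 5, and its mt-Rnr2 level was 9421 CPM, against 2795 to 3668. The difference of mt-Rnr2 from wild types was 0.64 (SE 0.248, edgeR adjusted p = 0.460) and that of mt-Tc was 0.93 (SE 0.274, edgeR adjusted p = 0.460). In Dlx bed nucleus females the difference with the smallest p was that of mt-Atp8 (-1.20, SE 0.390, edgeR adjusted p = 0.813), a gene of few counts.

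The mitochondrial share was higher in knockouts in 6 of 8 genotype comparisons and passed the adjustment in none. The lowest exact permutation p was 0.0433 (adjusted 0.162) in Nex bed nucleus females, with 4.56 ± 0.233 against 4.21 ± 0.297% (SD, n = 6 each). In Nex hippocampus males it was 4.17 ± 0.890% (n = 5) against 3.53 ± 0.365% (n = 6; exact permutation p = 0.152). In Dlx bed nucleus males it was 3.96 ± 0.564 against 4.30 ± 0.533% (n = 6 each, exact permutation p = 0.323), where Dl_B_M_K_639 stood at 2.84%. Of the rRNA, tRNA and mt-Nd6 shares none passed. The lowest exact permutation p were 0.0260 for the rRNA share in Dlx hippocampus males (13.995 ± 1.52 against 16.9 ± 3.01%), 0.0216 for the tRNA share in the same animals (0.323 ± 0.0275 against 0.371 ± 0.0330%) and 0.0455 for the mt-Nd6 share in Nex hippocampus males (3.34 ± 0.625 against 2.76 ± 0.119%). Their adjusted p were 0.139, 0.139 and 0.162.

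**Figure D4:**
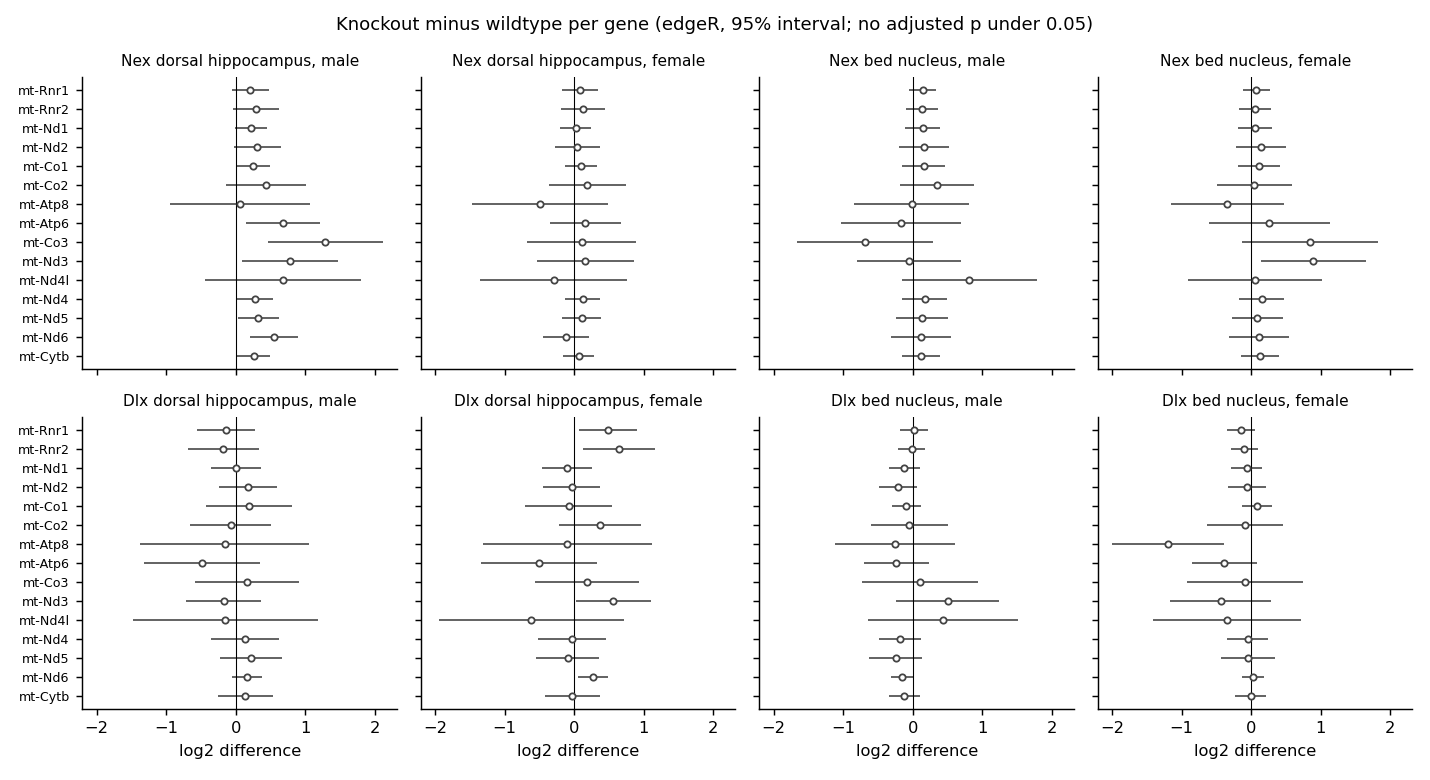
Log2 difference of the 13 mitochondrial mRNAs and 2 rRNAs, knockout minus wild type, in each line, region and sex (edgeR); points are estimates and lines 95% intervals. None passed an adjusted p under 0.05; in Nex hippocampus males all 15 estimates lie above 0, from 0.06 to 1.29.

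Sex, line and the interactions called no member either. Between wild-type males and females 0 of 29 were called in each line and region, beside 0.117 and 0.0535% of all genes in the hippocampus and bed nucleus of the Nex line and 0.23 and 0.0701% in those of the Dlx line. In the same order 4, 1, 1 and 4 members reached an unadjusted p under 0.05 by edgeR's test, as did 6.67, 4.14, 12.1 and 9.19% of all genes. Limma called 1 member in the Dlx bed nucleus, beside 1366 of 18547 genes. In the Nex hippocampus 3 of 7 endothelial markers were lower in males, and their part in the members' values was not tested. Medians of the members were -0.12, 0.17, -0.10 and -0.14 (males minus females). Between wild types of the Nex and Dlx lines 0 of 29 were called in the hippocampus, beside 0% of all genes, and 0 in the bed nucleus, beside 5.14%. At an unadjusted p under 0.05 these counts were 6 and 0, beside 7.97 and 20.6% of all genes. Limma called 3 and 2 members, beside 613 of 19371 and 4375 of 19433 genes. The edgeR fits for sex in the Dlx hippocampus and for lines in the hippocampus took their spread from knockouts as well, Dl_D_F_K_8 included. The part of that library in these counts was not tested.

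The sex by genotype difference, which bears on sex-specific effects, was called for 0 members in each line and region, beside 0% of all genes. Its lowest edgeR adjusted p were 0.9999, 0.9999, 0.628 and 0.530, and 6, 2, 2 and 2 members reached an unadjusted p below 0.05, as did 2.72, 1.14, 7.22 and 8.88% of all genes. Within the Nex hippocampus, 26 of 29 members had a knockout difference that was more positive in males than in females, with a median of 0.27 on the log2 scale. The line by genotype difference, which bears on opposed effects in the 2 neuron classes, was called for 0 members in each region and sex, beside 0 and 0.00516% of all genes in hippocampus males and females and 0.00515% in either sex of the bed nucleus. At an unadjusted p under 0.05 there were 5, 1, 1 and 1 members, beside 3.72, 9.40, 4.44 and 2.20% of all genes. In hippocampus males its median was 0.22 and 23 of 29 members had a positive value (Nex minus Dlx). Since the high mRNAs moved together across libraries, neither this count nor the 26 of 29 is a count of separate results. Both include N_D_M_K_543 and N_D_M_K_571, the knockout libraries that stood apart above. The fit for the line by genotype difference in hippocampus males also took its spread from Dl_D_F_K_8, whose part was not tested.

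Nuclear genes that build or run the same machinery were compared in the same fits. Of 49 nuclear respiratory chain subunits tested, 23 fell and 0 rose in the hippocampus of Nex wild types (median -0.15), and 12 fell and 1 rose in Nex knockouts (-0.06). In the Dlx line 2 fell and 1 rose in wild types (-0.06) and 3 fell and 2 rose in knockouts (0.14). These knockouts include Dl_D_F_K_8, with a summed 24116 CPM at this list, against at most 12566 in any other library. Its part in the counts and medians of this and the other nuclear lists was not tested. In Nex wild types Sdhc and Sdhb, subunits of complex II, which has no mitochondrially encoded part, fell by 0.24 each (edgeR adjusted p = 2.40e-08 and 5.38e-07). Ndufb5 and Ndufv2 of complex I fell by 0.43 and 0.26 (edgeR adjusted p = 9.30e-08 and 1.27e-06). In the Dlx line Sdha, the flavoprotein of complex II, fell by 0.26 in wild types and 0.28 in knockouts (edgeR adjusted p = 2.83e-05 and 6.15e-06), while Cox8a of complex IV rose by 0.39 and 0.41 (0.0355 and 0.0235). The background shares are those given above for each comparison.

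Genes that act directly on mitochondrial RNA gave a mixed picture between the regions. Of 18 genes of mitochondrial transcription and replication, 2 rose and 3 fell in Nex wild types, 2 and 3 in Nex knockouts, 3 and 2 in Dlx wild types and 2 and 5 in Dlx knockouts. Tfb1m, the methyltransferase of the 12S rRNA, fell in all 4 (-0.45 to -0.63, edgeR adjusted p from 4.79e-07 to 6.72e-05). Mterf2, of the mitochondrial termination factor family, fell by 0.55 and 0.46 in Nex wild types and knockouts and by 0.30 in Dlx wild types (edgeR adjusted p = 5.35e-10, 6.42e-08 and 0.0178). Of 29 genes of RNA processing and stability tested, 4, 5, 5 and 7 rose and 8, 5, 5 and 3 fell in the same order. Trit1, which modifies tRNAs of both the cytosol and the mitochondrion, rose by 0.68, 0.67, 0.62 and 0.64 (edgeR adjusted p at most 4.83e-08). Nsun4, which methylates the 12S rRNA, fell by 0.35, 0.32, 0.41 and 0.35 (at most 2.90e-06).

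Of 12 regulators of mitochondrial biogenesis, 3 or 4 rose and 2 or 3 fell in each comparison. The nuclear receptor gene Esrrg fell by 2.35, 2.18, 2.81 and 2.85, and Ppargc1a, the coactivator PGC-1alpha, fell by 0.64, 0.62, 0.97 and 0.78 (edgeR adjusted p at most 8.48e-05). Yy1 rose by 0.32 to 0.37 in all 4. Of 77 mitochondrial ribosomal protein genes tested, 13 rose and 12 fell in Nex wild types, 14 and 11 in Nex knockouts, 4 and 2 in Dlx wild types and 16 and 3 in Dlx knockouts. The Dlx knockouts again include Dl_D_F_K_8. In the 8 genotype comparisons no gene of these 5 lists was called. Between lines, Mterf2 was higher in the bed nucleus of Nex than of Dlx wild types (0.22, SE 0.0617, edgeR adjusted p = 0.0251), the 1 call of these lists outside the region comparisons.

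Within groups, libraries with more mitochondrial counts had lower summed levels of the nuclear respiratory chain genes. Over group-centred log2 values the Pearson correlation was -0.771 in the hippocampus (n = 47, Spearman's rho -0.605) and -0.686 in the bed nucleus (n = 48, rho -0.554). The permutation p adjusted over 22 relations were 0.00022 and 0.00033 for r and 0.00055 for both rho. Without the 2 libraries farthest from the median r was -0.606 and -0.502, and in the hippocampus without Dl_D_F_K_8 it was -0.495. That library had 24116 CPM at these nuclear genes, against at most 12566 in any other.

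Because both sums share a total, the relation was also computed per 1e6 nuclear counts, against mitochondrial mRNA, a choice made after seeing the data. In the bed nucleus r was then -0.699 for respiratory chain subunits, -0.823 for mitochondrial ribosomal proteins, -0.779 for transcription and replication genes and -0.685 for cytosolic ribosomal proteins. Spearman's rho were -0.546, -0.739, -0.751 and -0.596 (permutation p adjusted over 12 relations at most 0.00012). For RNA processing genes r was -0.0524 and rho 0.0281, and for biogenesis regulators 0.312 and 0.246 (adjusted p = 0.0371 and 0.0994). The cytosolic ribosomal proteins, which have no part in the organelle, had a correlation of the same sign and similar size as the respiratory chain genes. In the hippocampus without Dl_D_F_K_8 the r for the first 4 lists were -0.531, -0.510, -0.440 and -0.464.

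**Figure D5:**
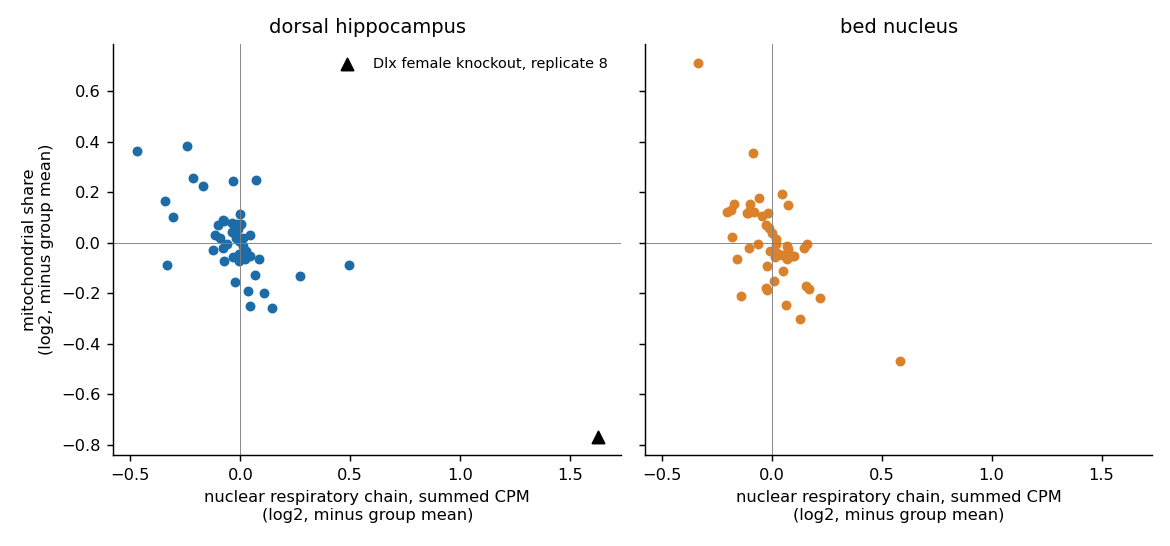
Mitochondrial share (vertical axis) against summed CPM of nuclear respiratory chain subunits (horizontal axis), both as log2 minus the group mean, for each region; each point is 1 library. Points run from upper left to lower right in both regions (r = -0.771 and -0.686), and the triangle is Dl_D_F_K_8.

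Other library features followed the mitochondrial share less firmly. Summed astrocyte markers went with it in the bed nucleus (r = 0.465, rho 0.531, permutation p adjusted over 22 relations 0.00321 and 0.0011, r = 0.508 without the 2 farthest libraries). In the hippocampus their r of 0.583 was 0.262 without the 2 farthest libraries and rests on those. Glutamatergic, GABAergic, microglial and erythrocyte markers there had r of 0.617, 0.5345, -0.565 and -0.4035 (adjusted permutation p = 0.00383, 0.00383, 0.00437 and 0.0296). Without Dl_D_F_K_8 these r were 0.0788, 0.164, -0.0726 and -0.00711. The number of genes with a count had r = 0.704 with the share in the hippocampus and 0.259 without Dl_D_F_K_8, and 0.258 in the bed nucleus. Total counts had r = 0.131 and 0.258 (adjusted permutation p = 0.501 and 0.132). In 42 pairs of hippocampus and bed nucleus libraries with the same number in a group, the group-centred shares did not go together (r = -0.0211, rho 0.0759, permutation p = 0.887 and 0.630; r = -0.111 without the 2 farthest).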

How the data were processed

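The deposited values used here are raw counts per gene, not normalised; the submitters' processing notes name HISAT2 2.0.5 and featureCounts 1.5.0-p3. The 95 deposited FPKM columns were not used. Per the labels, brains were snap-frozen, the miRNeasy Mini Kit gave total RNA and Novogene made the libraries. The sources used here name no build; 98.33% of gene identifiers found in GENCODE M21, and all 44 members and copies, had its GRCm38 coordinates.

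Tests across genes used edgeR 4.0.16 in R 4.3.3 (filterByExpr, TMM, quasi-likelihood test, Benjamini-Hochberg over all genes, adjusted p under 0.05) in 26 comparisons; SE is the log2 difference over the square root of F. Each fit for genotype and sex held the 4 groups sharing a line and region, each for regions the 8 groups of a line, and each for lines the 8 groups of a region. Libraries of groups outside a comparison thus entered its spread and were not left out in turn for it. The steps were tested on simulated data. Levels are counts over the library total times 1e6. Shares were compared by exact two-sided permutation tests (scipy 1.17.1), adjusted over 64; correlations used 100000 permutations, so 1e-05 is their smallest p. No library pair held identical counts (235 pairs within groups). Nothing says how many punches or animals a library holds, so p-values measure the spread between libraries. Alternatives were DESeq2 1.42.0, limma 3.58.1 with quality weights, other scalings, no filter, nuclear library sizes, the replicate number as a block and leaving out each library; adding the copies' counts was chosen after seeing the data.

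Membership rests on position alone, but the choice to describe these members, and the gene lists, were made with earlier results of these data known. The rule names all mRNAs and rRNAs, the 3 tRNAs of highest mean CPM, any called tRNA, at most 4 called members per nuclear list and comparison, and the chromosome 1 copies. Other tRNAs were named by their level.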

Additional observations from a re-analysis of the deposited data

Results flagged for a closer look

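In groups of 5 or 6 libraries the highest or lowest library was compared with the gap to its nearest neighbour, for the 4 shares and for mt-Co1 and mt-Co3. Of 96 groups and measures, 19 had a library that stood off in this way, where chance gives about 1 in 20, and they came from 11 libraries.

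Dl_D_F_K_8 (knockout female, Dlx hippocampus) stood off in 4 measures. Its rRNA share was 66.7% of mitochondrial counts (others 12.03 to 14.6%), its tRNA share 0.791% (0.294 to 0.343%), its mt-Nd6 share of mRNA counts 14.6% (2.60 to 3.03%) and its mt-Co1 level 1042 CPM (11318 to 16508). Dl_B_M_K_639 (knockout male, Dlx bed nucleus) also stood off in 4, with a mitochondrial share of 2.84% (others 3.99 to 4.29%), an rRNA share of 24.2% (12.2 to 13.3%), an mt-Nd6 share of 4.25% (2.63 to 2.83%) and mt-Co1 at 9694 CPM (13821 to 14739). In both, mt-Co1 was low while mt-Nd6 and the rRNAs took a larger share, as measured.

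Dl_D_M_W_641 had an rRNA share of 22.7% (14.3 to 16.8%) and an mt-Nd6 share of 3.48% (2.60 to 2.88%). N_D_F_K_476 had the lowest rRNA share of the series, 8.47% (12.1 to 13.5%). The mitochondrial share was 7.38% in N_B_M_W_573 (3.65 to 4.92%) and 4.94% in Dl_B_F_K_7 (4.18 to 4.36%), whose mt-Co1 level was 18110 CPM (13384 to 15079). The level of mt-Co1 was 14876 CPM in N_D_M_W_533 (11336 to 11885) and 16949 in N_B_F_K_456 (14344 to 15155). The level of mt-Co3, which has an identical nuclear copy, was 155 CPM in N_D_F_W_458 (32.2 to 61.2), 170.1 in Dl_D_M_W_627 (47.3 to 76.9) and 359 in Dl_B_M_W_643 (32.5 to 142).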

How the results depend on the processing

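No called value changed sign under any alternative run. Limma with quality weights called 13 members (beside 11268 of 19904 genes) between regions in Nex knockouts and 11 (12762 of 19512) in Dlx wild types. It called 1 (1366 of 18547) between sexes in the Dlx bed nucleus, and 3 (613 of 19371) and 2 (4375 of 19433) between lines in the hippocampus and bed nucleus. With the replicate block 7 members (10895 of 19904 genes) were called between regions in Nex wild types, 12 (10383) in Nex knockouts and 1 (8885 of 19512) in Dlx knockouts, and mt-Nd1, mt-Nd3, mt-Nd4 and mt-Rnr1 in Nex wild types, mt-Ty in Dlx wild types and mt-Rnr2 in Dlx knockouts were not. Blocked differences in shares were -0.806 percentage points (mitochondrial, Dlx wild-type females), 0.0855 (tRNA, Dlx wild-type males) and -0.217 (mt-Nd6, Dlx wild-type females), with exact p = 0.0625, the smallest that 5 pairs allow. Whether the numbers pair the libraries was not settled. Of 42 same-numbered pairs 15 correlated over 0.1 (median 0.0702, -0.175 to 0.327). In 15 of the 42 the own number correlated best among the 6 bed nucleus libraries of the same line, sex and genotype. A random pick would give 1 in 6, and no test was made of the count of 15. Leaving out each library, region counts were 7 to 14 (Nex wild types), 4 to 12 (Nex knockouts), 3 to 8 (Dlx wild types) and 1 to 3 (Dlx knockouts), and Nex hippocampus males had 0 to 1 genotype calls. Region differences in mitochondrial share were -0.656 to -0.482 (Nex wild-type females), -0.857 to -0.634 (Nex knockout females) and -0.797 to -0.654 (Dlx wild-type females). Those in the rRNA share were 2.73 to 4.42 (Dlx wild-type males). Those in the tRNA share were 0.0448 to 0.0680 (Nex knockout females), 0.0761 to 0.0925 (Dlx wild-type males) and 0.0347 to 0.0454 (Dlx wild-type females), and in the mt-Nd6 share -0.256 to -0.210 (Dlx wild-type females). The 3 shares called (mitochondrial, tRNA and mt-Nd6) no longer passed without any 1 of 5, 6 and 6 libraries (adjusted p = 0.0693 or 0.0831). The groups of these 3 comparisons did not overlap, and they stay apart when any 1 library is left out. An exact p from so few libraries moves in coarse steps. The cause of the lost calls was not tested. The calls of mt-Tl1 in Nex wild types and mt-Nd5 in Nex knockouts were lost without any 1 of 12 and 11 libraries, those of mt-Rnr1, mt-Nd1 and mt-Nd3 in Nex wild types without 6, 3 and 2, that of mt-Nd3 in Nex knockouts without 8, and that of mt-Ty in Dlx wild types without 2. Those of mt-Nd4 in Nex wild types and mt-Th in Nex knockouts were lost without 1 and that of mt-Rnr2 in Dlx knockouts without any 1 of 5. Limma did not call mt-Nd1 and mt-Tl1 in Nex wild types, mt-Th in Nex knockouts or mt-Rnr2 in Dlx knockouts, and without a filter mt-Tl1 in Nex wild types and mt-Nd5 in Nex knockouts were not called. Adding the copies' counts gave 12 and 8 calls in the Nex line. The 8 tRNAs that were not tested did not pass the filter on low counts.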
